A study of Arabidopsis thaliana with 12 samples.

Results

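SPA1, RUP1 and RUP2 encode WD40-repeat proteins that restrain light signalling, and their transcripts were followed in etiolated Arabidopsis thaliana seedlings before and after green light. The 3 genes were chosen by locus (AT2G46340, AT5G52250 and AT5G23730) from 1731 genes listed for either genotype, and all 3 were present in each of the 12 libraries. RNA was taken from whole seedlings of 3 days of age, either wild type or BES1-RNAi. BES1-RNAi plants carry a transgene that targets BES1, a transcription factor of the brassinosteroid hormone pathway, by RNA interference. All seedlings had grown in darkness. In each genotype, 3 libraries came from seedlings kept dark and 3 from seedlings given green light without a break for 1 h (10 µmol per square metre and second), 12 libraries in 4 groups. The labels name neither the promoter of the transgene nor the number of lines, and the level of BES1 was not analysed here, so the genotypes are those of the labels. Nor do they say whether the replicates were grown apart, so the p-values rest on a spread between libraries that may be technical. Whole seedlings were used, so fewer cells of a type and less RNA per cell cannot be told apart.

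In darkness, the ubiquitin ligase COP1 works with SPA proteins to mark light-promoting transcription factors such as HY5 for degradation. SPA1, a kinase-like protein with a coiled coil and WD40 repeats, is one of these partners of COP1, and photoreceptors inactivate the complex in light. RUP1 and RUP2 are small WD40 proteins that bind the UV-B photoreceptor UVR8 and return it to its inactive ground state. Genes for such repressors are themselves induced by light, which makes them a feedback brake on the pathway.

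On the TAIR10.1 assembly, SPA1 lies on the minus strand of chromosome 2 at chr2:19022154-19027528. Its first annotated transcript has 8 exons and 3933 bases. RUP1 lies on the plus strand at chr5:21216772-21218351 and RUP2 on the plus strand at chr5:8005097-8006630, each as a single exon of 1580 and 1534 bases. RUP1 and RUP2 are related in sequence, with 70.5% identity over the aligned bases of their coding regions, but the longest identical run between their transcripts was 16 bases. Between SPA1 and RUP1 it was 17 bases, and between SPA1 and RUP2 15 bases. No annotated gene overlapped any of the 3 loci.

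The 250 bases before each annotated gene start are printed here, 5′ to 3′ on the gene's strand, because the 3 genes rose together in light while RUP1 differed from the others in the direction of its genotype difference. Capitals mark the ACGT core, which bZIP factors such as HY5 recognise, and the E-box CANNTG, which BES1 is known to bind. They lie at chr2:19027529-19027778, chr5:21216522-21216771 and chr5:8004847-8005096 (RefSeq, TAIR10.1).
SPA1: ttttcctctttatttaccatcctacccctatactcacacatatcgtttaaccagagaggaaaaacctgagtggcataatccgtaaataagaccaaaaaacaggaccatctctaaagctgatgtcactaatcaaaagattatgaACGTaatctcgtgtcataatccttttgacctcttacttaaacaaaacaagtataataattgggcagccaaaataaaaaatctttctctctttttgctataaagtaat
RUP1: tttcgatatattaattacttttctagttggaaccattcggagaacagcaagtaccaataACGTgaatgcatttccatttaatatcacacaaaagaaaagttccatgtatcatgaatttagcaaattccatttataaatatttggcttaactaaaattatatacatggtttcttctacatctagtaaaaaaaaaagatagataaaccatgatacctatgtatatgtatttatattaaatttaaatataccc
RUP2: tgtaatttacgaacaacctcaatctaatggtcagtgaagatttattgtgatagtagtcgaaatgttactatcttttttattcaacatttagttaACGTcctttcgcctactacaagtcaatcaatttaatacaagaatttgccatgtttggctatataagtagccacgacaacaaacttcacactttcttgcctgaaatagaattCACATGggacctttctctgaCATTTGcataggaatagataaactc
Each window held 1 ACGT core, which began 107 bases before the start of SPA1, 191 before RUP1 and 156 before RUP2. An ACGT core was present in 44.1% of 27438 windows of this length before protein-coding genes. Of the 3 genes, RUP2 had an E-box, with CACATG beginning 45 bases and CATTTG 25 bases before its start, and 55.3% of all windows held at least 1. None of the 3 windows held a G-box (CACGTG, which contains both an ACGT core and an E-box) or the brassinosteroid response element CGTGCG or CGTGTG, which were present in 6.49% and 6.71% of all windows. Both strands were searched, and a match is a description of the letters in this window.

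Several features of the tables bear on all values below. Values are FPKM, which relate fragments to transcript length and to the mapped fragments of each library, and the depth of the libraries is unknown. In wild type 1287 genes were listed and in BES1-RNAi 1077, with 633 in both. A 2-fold or larger difference in mean FPKM with light was present for 83.9% of the listed wild-type genes and 93.7% of those of BES1-RNAi. The filter behind the lists is not given, so the light response of a listed gene is a description. The median log2 change of all genes was 0.82 for light in wild type, 1.07 for light in BES1-RNAi, 0.34 for genotype in the dark and 0.46 for genotype in green light. Median scaling, which divides each library by its median ratio to the mean library, brought these to 0.077, 0.012, -0.086 and -0.17. The scaling was computed on the listed genes alone, so medians near 0 follow from the method. Where most listed genes truly move in the same direction, it removes part of that change. Neither scale is therefore taken as the correct one. The ribosomal RNA locus AT2G01020 ranged from 4138 to 8038 FPKM in wild-type dark libraries and from 19426 to 52910 FPKM in wild-type green-light libraries. In BES1-RNAi it ranged from 1324 to 3151 FPKM in the dark and from 4888 to 6892 FPKM in green light. It moved with both factors, and its part in the results was not tested. Of 5 root hair markers, COBL9 and RSL4 were listed, and of 8 seed storage markers SESA5, all in wild type alone. Without scaling, RSL4 (log2 change 0.60, adjusted p = 0.022) and SESA5 (0.87, adjusted p = 0.031) passed as higher in light, as the 3 members did, and COBL9 had 0.47 (adjusted p = 0.11). After median scaling none of the 3 markers passed, and their part in the results was not tested.

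SPA1 transcripts rose with green light in both genotypes and were higher in BES1-RNAi in both light conditions, the latter in green light without median scaling. In wild type the level was 7.92, 6.73 and 6.93 FPKM in the dark and 64.89, 57.83 and 69.27 FPKM after light. In BES1-RNAi it was 13.19, 15.39 and 14.29 FPKM in the dark and 104.98, 102.13 and 109.27 FPKM after light. No 2 groups overlapped, and the order from lowest to highest was wild type dark, BES1-RNAi dark, wild type green and BES1-RNAi green. Light raised the mean 8.90-fold in wild type, from 7.19 ± 0.637 to 64.0 ± 5.77 FPKM (SD, n = 3), and 7.38-fold in BES1-RNAi, from 14.3 ± 1.1 to 105 ± 3.59 FPKM. On the log2(FPKM + 1) scale these changes were 2.99 ± 0.12 (SE, adjusted p = 6.60e-07) and 2.80 ± 0.09 (adjusted p = 1.05e-08).

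RUP1, one of the UVR8 repressors, rose with light as well, but its genotype difference ran the other way. In wild type the level was 17.02, 21.68 and 16.96 FPKM in the dark and 99.53, 99.01 and 110.55 FPKM after light. In BES1-RNAi it was 8.19, 9.61 and 9.18 FPKM in the dark and 67.42, 74.14 and 66.6 FPKM after light. Every BES1-RNAi library was thus below every wild-type library of the same light condition, and the order of the groups was BES1-RNAi dark, wild type dark, BES1-RNAi green and wild type green, without overlap. Light raised the mean 5.55-fold in wild type, from 18.6 ± 2.71 to 103 ± 6.52 FPKM, and 7.72-fold in BES1-RNAi, from 8.99 ± 0.728 to 69.4 ± 4.14 FPKM. The log2 changes were 2.42 ± 0.12 (SE, adjusted p = 1.87e-06) and 2.82 ± 0.10 (adjusted p = 1.95e-08).

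RUP2, the second UVR8 repressor, had the lowest dark level and the largest relative rise of the 3. In wild type the level was 2.34, 1.82 and 2.09 FPKM in the dark and 37.45, 43.86 and 40.58 FPKM after light. In BES1-RNAi it was 4.06, 5.06 and 4.71 FPKM in the dark and 107.81, 107.29 and 110.74 FPKM after light. The order of the groups was that of SPA1, again without overlap. The mean rose 19.5-fold in wild type, from 2.08 ± 0.260 to 40.6 ± 3.21 FPKM, and 23.6-fold in BES1-RNAi, from 4.61 ± 0.507 to 109 ± 1.86 FPKM. The log2 changes were 3.76 ± 0.14 (SE, adjusted p = 4.95e-07) and 4.29 ± 0.10 (adjusted p = 3.70e-09). By fold of means, RUP2 ranked 51st, SPA1 90th and RUP1 135th of the 1287 wild-type genes, and 26th, 94th and 89th of the 1077 BES1-RNAi genes.

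All 3 genes passed the test of the light response in both genotypes. In wild type 97.6% of the genes passed in either direction, and in BES1-RNAi 99.6%, so the count of members says nothing particular about them. Without scaling 810 wild-type genes (62.9%) were higher and 446 (34.7%) lower in light, and after median scaling 360 and 448. In BES1-RNAi 792 (73.5%) were higher and 281 (26.1%) lower, and after scaling 314 and 295. After scaling, the log2 changes of SPA1, RUP1 and RUP2 were 2.15, 1.55 and 3.00 in wild type and 1.62, 1.66 and 3.17 in BES1-RNAi, all past the threshold.

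**Figure D1:**
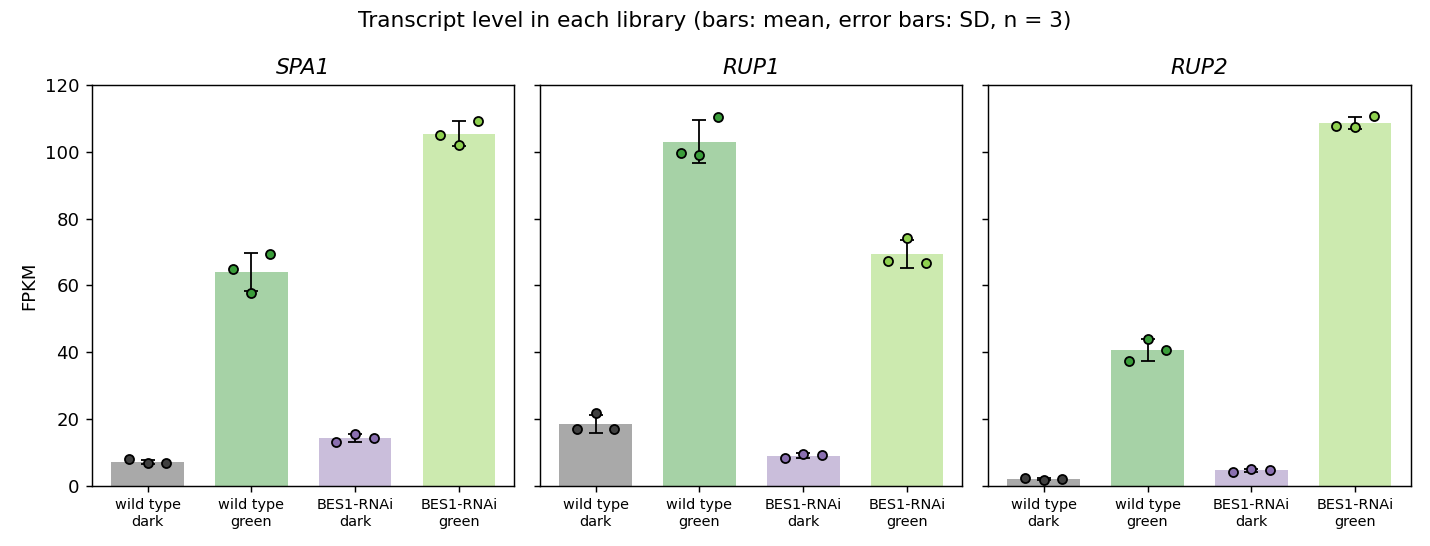
FPKM (y axis) of SPA1, RUP1 and RUP2 in each of the 12 libraries, by group (x axis), with bars for the mean and error bars for the SD of 3 libraries. SPA1 and RUP2 are highest in BES1-RNAi green light, at 105 and 109 FPKM, and RUP1 in wild-type green light, at 103 FPKM.

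In the dark, before any light was given, BES1-RNAi seedlings held more SPA1 and RUP2 transcript and less RUP1 transcript than wild type. The mean of SPA1 was 1.99-fold higher (log2 difference 0.90 ± 0.10 SE, adjusted p = 1.21e-06) and that of RUP2 2.21-fold higher (0.86 ± 0.12, adjusted p = 8.20e-06). RUP1 stood at 48.5% of the wild-type mean (log2 difference -0.96 ± 0.11, adjusted p = 1.19e-06). Log2 differences of single genes are on the log2(FPKM + 1) scale, which reduces differences between low levels. That of RUP2 in the dark is therefore below that of SPA1 although its fold is larger. Of the 633 genes compared, 64.5% passed in this comparison, 48.7% as higher and 15.8% as lower in BES1-RNAi, and RUP1 had the 25th lowest log2 difference of all. After median scaling the numbers were 191 higher and 226 lower, in place of 308 and 100. The 3 members then differed by 0.39, 0.48 and -1.53 for SPA1, RUP2 and RUP1, all past the threshold (adjusted p = 0.0025, 0.0019 and 7.04e-08).

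After 1 h of green light RUP2 was again higher and RUP1 again lower in BES1-RNAi. The mean of RUP2 was 2.67-fold higher (log2 difference 1.40 ± 0.12 SE, adjusted p = 2.74e-08). RUP1 stood at 67.3% of wild type (-0.56 ± 0.11, adjusted p = 0.000227). SPA1 was 1.65-fold higher (0.72 ± 0.10, adjusted p = 1.15e-05), but after median scaling its difference was -0.035 (adjusted p = 0.78), so that the call for SPA1 in green light depended on the scale. RUP2 and RUP1 kept their directions after scaling, at 0.65 and -1.30 (adjusted p = 0.00015 and 4.61e-07). Of the 633 genes 70.6% passed in green light, 54.7% as higher and 16% as lower in BES1-RNAi without scaling (346 and 101 genes), while after it 184 were higher and 262 lower.

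The combination seen for RUP1 was counted over the listed genes. Of 511 genes raised by light in both genotypes, 37 (7.24%) were lower in BES1-RNAi both in the dark and in green light, RUP1 among them, whereas 243 (47.6%) were higher in both, SPA1 and RUP2 among them. With median scaling, 127 of the same 511 genes were lower and 139 higher in both conditions, so that the size of these classes depended on the scale. RUP1 and RUP2 kept their classes, but SPA1, at -0.035 in green light, was no longer among the genes higher in both.

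**Figure D2:**
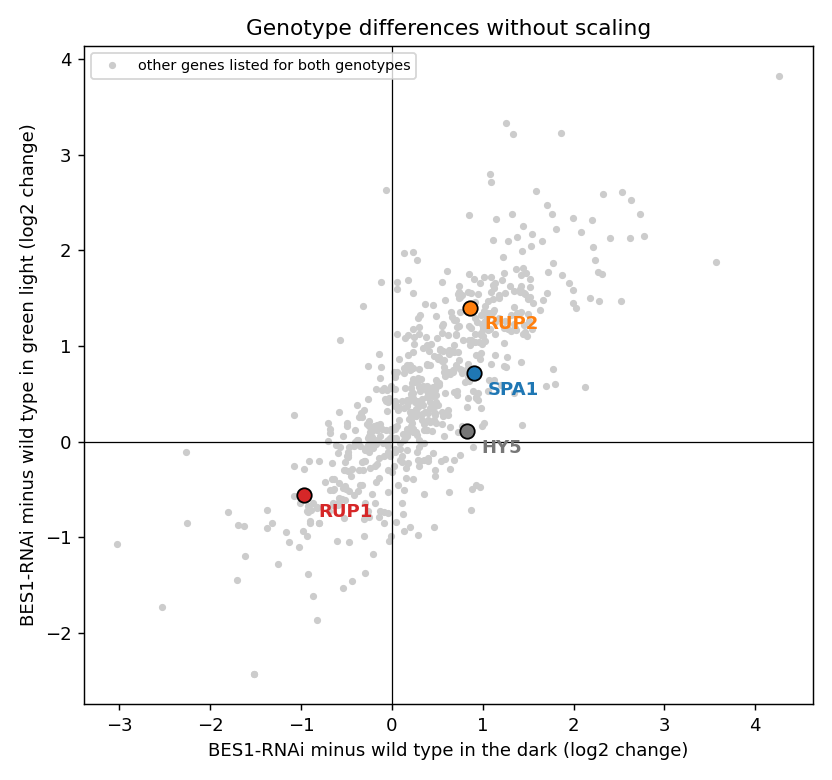
Log2 difference, on the log2(FPKM + 1) scale, between BES1-RNAi and wild type in the dark (x axis) and in green light (y axis) for the 633 genes listed for both genotypes, without scaling. SPA1 (0.90, 0.72) and RUP2 (0.86, 1.40) lie in the upper right, RUP1 (-0.96, -0.56) in the lower left, and HY5 (0.82, 0.11) near the horizontal axis.

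The paralogs were also compared as a ratio within each library, which does not depend on how that library was scaled. FPKM is given per length, so levels of RUP1 and RUP2 can be set side by side. The RUP2/RUP1 ratio was 0.137, 0.0839 and 0.123 in wild-type dark libraries and 0.376, 0.443 and 0.367 in wild-type green-light libraries. In BES1-RNAi it was 0.496, 0.527 and 0.513 in the dark and 1.60, 1.45 and 1.66 in green light. RUP1 was thus the more abundant of the pair in 3 of the 4 groups, and RUP2 in all 3 libraries of BES1-RNAi in green light. The RUP2 share of the summed FPKM of both genes rose from 10.3% ± 2.25 (SD, n = 3) in wild-type dark and 28.3% ± 2.10 in wild-type light to 33.8% ± 0.677 in BES1-RNAi dark and 61.0% ± 1.71 in BES1-RNAi light. The sum itself was 20.6 ± 2.48 and 13.6 ± 1.24 FPKM in the dark and 144 ± 7.11 and 178 ± 3.15 FPKM in green light, in wild type and BES1-RNAi.

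The genotype difference of the RUP2/RUP1 ratio was 4.55-fold in the dark (log2 difference 2.19 ± 0.22 SE) and 3.98-fold in green light (1.99 ± 0.10). Light raised the ratio 3.50-fold in wild type (log2 1.81 ± 0.23) and 3.06-fold in BES1-RNAi (1.61 ± 0.06). None of these groups overlapped, and the exact permutation test of 3 libraries against 3 gave p = 0.1 for each, the smallest it allows. Over both light conditions together, with genotype permuted within a condition, the ratio was 4.25-fold higher in BES1-RNAi (two-sided exact permutation p = 0.005, the smallest of 400 arrangements, and 0.0086 after Benjamini-Hochberg adjustment over 12 tests). With light permuted within a genotype, it was 3.28-fold higher in light (p = 0.005, adjusted p = 0.0086, exact). These pooled tests, here and below, were added after the data had been seen. Groups that do not overlap and differ in the same direction in both parts always give an exact permutation p of 0.005. That value therefore restates the lack of overlap and adds no further support.

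SPA1 served as a second within-library reference, although its own level moved with light and genotype. A ratio to SPA1 thus combines the changes of both genes, and these ratios are not independent of RUP2/RUP1. The RUP1/SPA1 ratio was 2.61 ± 0.553 in wild-type dark and 1.61 ± 0.0905 in wild-type light, but 0.629 ± 0.0115 and 0.659 ± 0.0601 in BES1-RNAi. It was 3.16-fold lower in BES1-RNAi over both conditions (exact permutation p = 0.005, adjusted p = 0.0086). Within BES1-RNAi the ratios of dark and light libraries overlapped, with a log2 difference of 0.06 ± 0.08 (SE, exact permutation p = 0.7). The RUP2/SPA1 ratio rose with light in both genotypes, from 0.289 ± 0.0165 to 0.640 ± 0.102 in wild type and from 0.322 ± 0.0124 to 1.03 ± 0.0188 in BES1-RNAi (2.65-fold over both genotypes, exact permutation p = 0.005, adjusted p = 0.0086). Its genotype difference was 1.11-fold in the dark (log2 0.16), where it turned to -0.037 with 1 FPKM added to both genes, and 1.62-fold in green light.

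**Figure D3:**
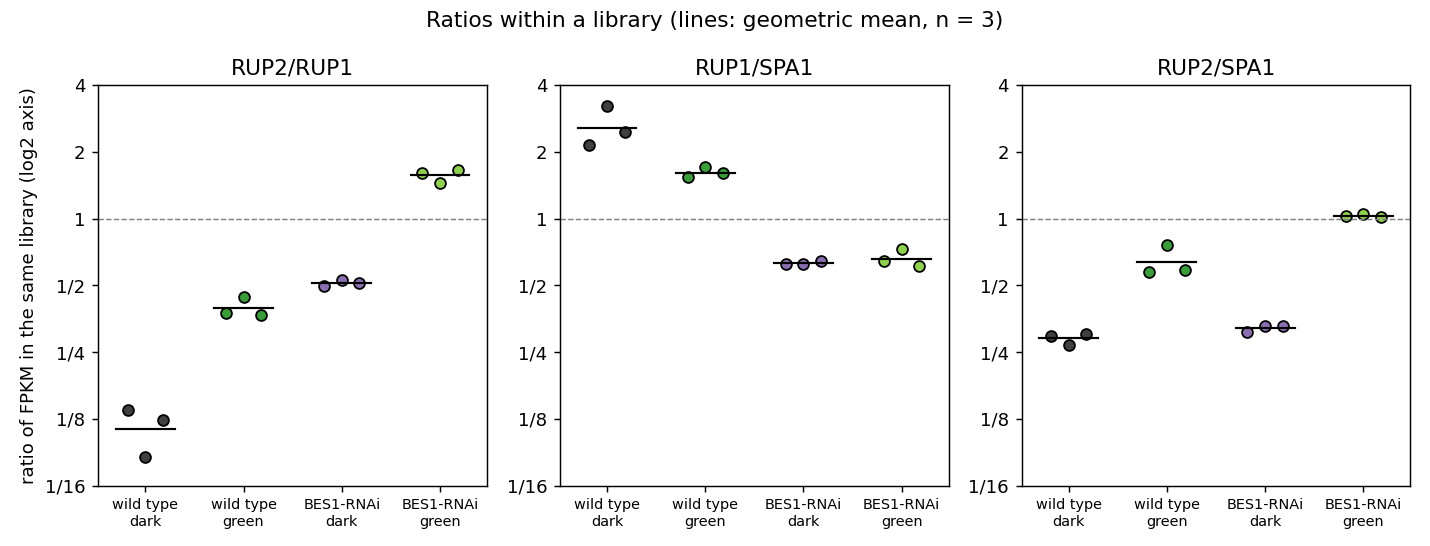
Ratio of FPKM between 2 of the genes in the same library, on a log2 axis, for the 4 groups, with points for the 3 libraries and lines for the geometric mean. RUP2/RUP1 exceeds 1 in the BES1-RNAi green-light libraries, at 1.45 to 1.66, and RUP1/SPA1 is above 1 in every wild-type library and below 1 in every BES1-RNAi library.

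Whether the light response itself differed between genotypes was tested as an interaction. The response of RUP2 was larger in BES1-RNAi by 0.54 ± 0.17 on the log2(FPKM + 1) scale (95% confidence interval 0.18 to 0.89, adjusted p = 0.025), in a comparison where 28.3% of the 633 genes passed, 17.7% with a larger and 10.6% with a smaller response. With a pseudocount of 0.1 FPKM, which shifts low values less, it was 0.31 (adjusted p = 0.25), and after median scaling 0.17 (adjusted p = 0.50). The call was also lost without the first wild-type dark, the first wild-type green-light, the first BES1-RNAi dark or any 1 of the 3 BES1-RNAi green-light libraries (adjusted p = 0.053 to 0.067). RUP1 had a difference of 0.40 (interval 0.07 to 0.73, adjusted p = 0.066), which passed without the second BES1-RNAi dark library (0.44, adjusted p = 0.049). SPA1 had -0.19 (interval -0.49 to 0.12, adjusted p = 0.39), and -0.43 after scaling (adjusted p = 0.035). Without scaling 112 genes had a larger and 67 a smaller response in BES1-RNAi, and after scaling 53 and 105.

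**Figure D4:**
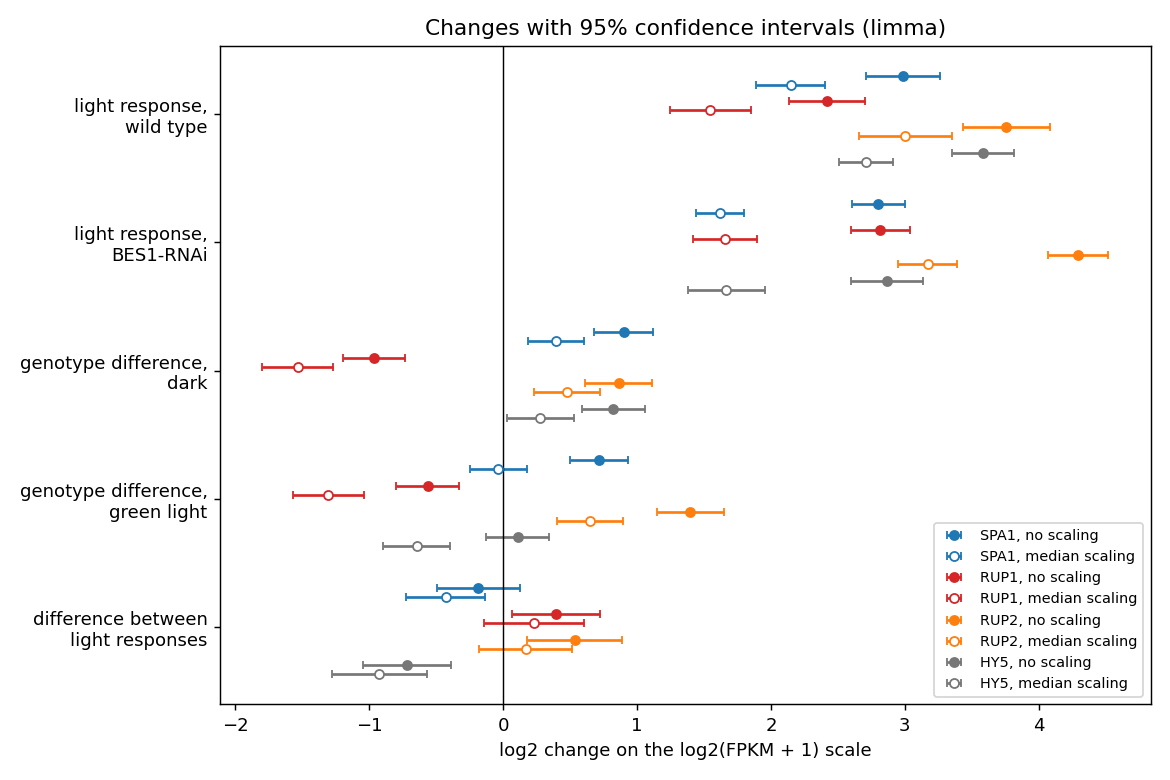
Log2 change on the log2(FPKM + 1) scale (x axis) of SPA1, RUP1, RUP2 and HY5 in 5 comparisons (y axis), with 95% confidence intervals from limma, without scaling (filled) and with median scaling (open). The genotype differences of RUP1 lie below 0 on both scales (-0.96 and -1.53 in the dark), and that of SPA1 in green light is 0.72 without and -0.035 with scaling.

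HY5, the bZIP factor that COP1 and SPA proteins act on and that is known to induce RUP genes under UV-B, gave a reference within the same libraries. In wild type it rose from 18.7 ± 1.11 to 235 ± 15.3 FPKM and in BES1-RNAi from 34.1 ± 5.75 to 254 ± 19.1 FPKM. The genotypes overlapped in green light (log2 difference 0.11 ± 0.11, adjusted p = 0.39), although after median scaling HY5 was lower in BES1-RNAi, at -0.65 (adjusted p = 0.00017). In the dark HY5 was itself higher in BES1-RNAi (0.82 ± 0.11, limma adjusted p = 6.52e-06, and 0.28 after scaling, adjusted p = 0.047). Its light response was smaller in BES1-RNAi (-0.72 ± 0.16, limma interaction, adjusted p = 0.0035). A ratio to HY5 thus combines the changes of both genes, as a ratio to SPA1 does. Per unit of HY5, the RUP2 level in green light stood at 0.174 ± 0.0252 for wild type against 0.430 ± 0.0240 for BES1-RNAi (SD, n = 3), a 2.48-fold difference. RUP1 per unit of HY5 stood at 0.440 ± 0.0366 for wild type against 0.275 ± 0.0327 for BES1-RNAi, and SPA1 at 0.272 ± 0.0184 against 0.417 ± 0.0180. These 3 ratios did not overlap between genotypes (exact permutation p = 0.1 each, the smallest possible). In the dark the genotypes overlapped in RUP2/HY5 (1.22-fold, log2 difference 0.29 ± 0.20 SE, exact permutation p = 0.3) and in SPA1/HY5 (1.10-fold, 0.13 ± 0.19, exact permutation p = 0.6). RUP1/HY5 did not overlap in the dark either, and was 3.72-fold lower in BES1-RNAi (log2 difference -1.90 ± 0.21 SE, exact permutation p = 0.1, the smallest possible). Pooled over both light conditions, adjusted p was 0.0225 for RUP2/HY5, 0.0086 for RUP1/HY5 and 0.04 for SPA1/HY5 (exact permutation, 12 tests). A pooled value cannot show in which condition the genotypes separate. By the overlaps given above, RUP2/HY5 and SPA1/HY5 separated the genotypes in green light and not in the dark.

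SPA3 and SPA4, relatives of SPA1 that also work with COP1, rose with light and were higher in BES1-RNAi. Of 10 genes of the complex and its CUL4 adaptors, SPA1, SPA3 and SPA4 were listed for wild type, and COP1 in addition for BES1-RNAi. SPA3 rose from 7.23 ± 1.13 to 40.7 ± 2.07 FPKM in wild type and from 16.8 ± 2.06 to 106 ± 10.4 FPKM in BES1-RNAi. SPA4 rose from 4.03 ± 0.0874 to 11.2 ± 1.16 FPKM and from 7.29 ± 0.227 to 26.9 ± 1.95 FPKM. All 3 listed SPA genes passed as higher in BES1-RNAi under both conditions, except that SPA4 did not pass in the dark and SPA1 did not pass in green light after median scaling. Of all 633 genes, 48.7% were higher in the dark and 54.7% in green light without scaling. COP1 went from 21.3 ± 1.07 to 46.3 ± 1.01 FPKM in BES1-RNAi (log2 change 1.09, adjusted p = 1.47e-06), but had -0.09 after scaling (adjusted p = 0.41). Of the 3 genes of the UV-B receptor and its inhibitors, RUP1 and RUP2 were listed for both genotypes, and UVR8 was listed for neither.

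Other genes around these repressors were described by count, from lists of 57 loci in all, of which 25 were listed for both genotypes. All lists were chosen with earlier results of these data known, so a count above the share of all genes is a description. Of 15 substrates of COP1 and SPA proteins, 8 were listed for wild type and all rose with light (62.9% of all genes did), 7 after scaling, with a median log2 change of 2.18 against 0.82 over all genes. In BES1-RNAi all 6 listed rose, also after scaling, beside 73.5% of all genes without it. HYH, the close homologue of HY5, rose from 3.32 ± 0.0954 to 48.4 ± 7.69 FPKM in wild type and from 19.9 ± 2.26 to 167 ± 19.7 FPKM in BES1-RNAi. In the dark 5 of these 6 substrates were higher in BES1-RNAi and 0 lower (4 and 0 after scaling), beside 48.7% and 15.8% of the 633 genes. In green light 4 were higher and 0 lower, beside 54.7% and 16% of all genes, but after scaling 2 were higher and 3 lower. Of 11 known UV-B or HY5 targets, 10 were listed and all 10 rose with light in each genotype, 9 after scaling, where 62.9% of all wild-type and 73.5% of all BES1-RNAi genes rose without scaling. In BES1-RNAi 9 of these were higher in the dark and 9 after light, and 8 and 7 after scaling, with 0 lower, beside the 48.7% and 54.7% of all genes that were higher without scaling. After scaling fewer of all genes were higher in each of these comparisons. The scaled counts are to be set beside the numbers of all genes after scaling given above for each comparison. Among 12 photoreceptor genes PHOT1 alone was listed, and it fell in both genotypes on either scale. Of 6 genes of the phytochrome-interacting family, PIF5 and PIF7 rose and PIL1 fell in both genotypes, and after scaling 1 of the 2 still rose in wild type and neither did in BES1-RNAi. Without scaling 34.7% of all wild-type genes and 26.1% of all BES1-RNAi genes fell, so a fall or rise of single listed genes was common.

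Across the 12 libraries, the log2 level of SPA1 was close to that of RUP2 and less so to that of RUP1. Pearson r was 0.994 between SPA1 and RUP2 (Spearman rho 0.979), 0.841 between SPA1 and RUP1 (0.573) and 0.846 between RUP1 and RUP2 (0.552), as a description over 12 libraries that share the same light groups. Of the 632 other genes listed for both genotypes, RUP2 was the 13th most like SPA1 by r, and RUP1 the 368th. The 5 genes most like SPA1 were RAP2.7, the glutaredoxin family gene AT1G64500, the potassium transporter gene AT3G56290, KAI2, which encodes the karrikin receptor, and the adenosylmethionine decarboxylase gene AT5G15950 (r from 0.995 to 0.998). The 5 most like RUP2 were AT5G15950, AT1G50020, the stress enhanced protein gene SEP2, AT1G64500 and AT3G56290 (r from 0.996 to 0.998), of which 3 were shared with SPA1. The 5 most like RUP1 were the RING finger gene RHA2A, the bHLH gene AT4G29930, the protein kinase gene MAPKKK17, AT1G30070 and the homeodomain-like gene AT3G16350 (r from 0.986 to 0.991), none of which was among the 5 of SPA1 or RUP2. The group means of all 5 had the same order as those of RUP1, which choosing genes by r over these libraries favours. AT4G29930, for instance, stood at 5.81 and 33.4 FPKM in wild type and 3.54 and 21.8 FPKM in BES1-RNAi, dark and light. An r over 0.95 was reached by 151, 55 and 155 of the 632 genes for SPA1, RUP1 and RUP2, so high values were common. After median scaling 2, 1 and 3 of the 5 genes stayed among the 5 most like SPA1, RUP1 and RUP2, and by Spearman rho 1, 0 and 0. The lowest r among the 5 after scaling was 0.42 for SPA1 (KAI2, rank 205), 0.39 for RUP1 (AT1G30070, rank 243) and 0.65 for RUP2 (SEP2, rank 143).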

How the data were processed

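RNA-seq was made from whole seedlings, with total RNA extracted with RNAiso Plus and libraries prepared with an Illumina TruSeq kit, per the labels' protocols. The deposited values are FPKM per gene and library, per the file headers. The submitters' processing notes name Trimmomatic 0.36, HISAT2 2.2.1.0, Cufflinks, TopHat, Bowtie2, DESeq 1.18.0 and the build TAIR10. No source used here gives the strand setting or the filter behind the gene lists. FPKM is relative to the fragments mapped in a library, so abundant RNAs that change shift all other values.

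Depth is unknown: below 1 FPKM, at most 58.3% of values in any library came within 0.1 of a whole multiple of a common step per length, so no reads were recovered. Tests used limma 3.58.1 on log2(FPKM + 1) (R 4.3.3, intensity trend, two-sided, Benjamini-Hochberg over all genes fitted, adjusted p under 0.05). Light was fitted in 6 libraries of a genotype, and genotype differences and the interaction over 633 shared genes in 12 libraries. The fits were also run on simulated data in which most genes were unchanged. In the real data most listed genes changed with light, so that run does not bear on the choice of scale. Ratios within a library used FPKM without a pseudocount and exact permutation tests over libraries. The test over both strata was added after the data had been seen. For the replicate numbers, see the closing section. Alternatives were a pseudocount of 0.1, a filter at a mean of 1 FPKM, median scaling, a replicate block, no trend and leaving out each library. Named genes were the members, HY5, up to 4 genes of each list with the lowest adjusted p for light, and the 5 genes with the highest Pearson r to each member. Members and lists were chosen with earlier results of these data known. Sequences were read from RefSeq's TAIR10.1 genome with Python 3.11.15 and Biopython 1.88.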

Additional observations from a re-analysis of the deposited data

Results flagged for a closer look

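The light response of RUP2 was larger in BES1-RNAi than in wild type by 0.54 on the log2(FPKM + 1) scale, by the test of the difference itself (limma interaction, adjusted p = 0.025). Mean FPKM rose by 38.5 in wild type, a 19.5-fold change. BES1-RNAi had a rise of 104 FPKM, which was 23.6-fold. With a pseudocount of 0.1 FPKM the difference between the responses was 0.31 (adjusted p = 0.25), and with median scaling 0.17 (adjusted p = 0.50). Leaving out 1 library ended the call for 6 of the 12 libraries (adjusted p = 0.053 to 0.067).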

How the results depend on the processing

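Depth is unknown, the lists hold selected genes, and each group has 3 libraries, which limits the precision of every value. The light responses of SPA1, RUP1 and RUP2 and their genotype difference in the dark kept direction and call under all alternatives run, as did the genotype differences of RUP1 and RUP2 in green light, with RUP1 between -1.30 and -0.51 and RUP2 between 0.65 and 1.45. The genotype difference of SPA1 in green light was -0.035 with median scaling and -0.035 with the replicate block and scaling (adjusted p = 0.78 and 0.80), and the cause was not tested. For the difference between the light responses, RUP2 had 0.31 with a pseudocount of 0.1, 0.17 with scaling and 0.17 with the block and scaling, and SPA1 had -0.43 with scaling. Leaving out 1 library gave 0.46 to 0.60 for RUP2, with adjusted p from 0.017 to 0.067, and 0.29 to 0.46 for RUP1, with adjusted p from 0.049 to 0.17. Genes past the threshold for light numbered 808 for wild type and 609 for BES1-RNAi with scaling, 806 and 578 with the block and scaling, and 631 and 633 of the 633 shared genes when fitted in 12 libraries. Same-numbered libraries of different groups had deviations correlated from -0.17 to 0.11, with 1 of 18 pairs over 0.1, so the numbers were taken as names. With 1 FPKM added to both genes, 9 of 24 log2 ratio differences moved by more than 1 SD of the replicates, all of them with RUP2, and that of RUP2/SPA1 between genotypes in the dark was -0.037. That of RUP2/HY5 with light in wild type was 0.17 in place of 0.64, and those of RUP2/RUP1 stayed between 1.34 and 1.96. The replicate block alone changed no call of the 3 genes and left RUP2 at 0.54 in the difference between responses.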
